A study of Rattus norvegicus with 12 samples.

Results

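The libraries compared here carried the treatment labels OGD/R + si-CIRBP and OGD/R + si-NC, 3 of each, and made up 6 of the 12 RNA sequencing libraries of the study. They were taken by those labels alone, with no measured value used to choose them. All 4 groups of the study had been through OGD/R, oxygen-glucose deprivation followed by reperfusion, so the control libraries carried that treatment too. It is a culture model of ischaemia in which cells lose oxygen and glucose for a time and then get them back. The other 6 libraries were labelled NC and CIRBP and also had OGD/R. The prefix si is the usual short form for a small interfering RNA, here by its name one against Cirbp, the cold-inducible RNA-binding protein, although the labels do not spell it out. The comparison asks how gene expression after OGD/R differs with it. Its dose, its sequence and the time between its addition and OGD/R were not stated in the labels. The source was labelled H9C2, a line from embryonic rat heart used as a cardiac myoblast model, whereas the cell line label gave rat astrocytes, and the cells used remain uncertain. The titles speak of biological replicates without saying whether they came from separate cultures, and the p-values below then measure only the spread between these libraries.

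Cirbp binds RNA and is made in larger amounts in mild cold and other stress. Several programmes described below are known to respond to such treatment. Interferons bind surface receptors, whose kinases activate a complex of factors that holds Stat2 and Irf9, and this switches on antiviral effector genes through a short promoter element, the interferon-stimulated response element. NF-kB factors, held in the cytoplasm by inhibitors, drive chemokines and cytokines. The hypoxia-inducible factors drive glycolysis and blood vessel growth when oxygen is short, and the Srebf factors drive sterol and fatty acid synthesis when sterols are short.

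The deposited values are FPKM, read fragments per length of transcript and per size of the library. Summed expression was 473388 to 502889 FPKM per library, 13056 to 13453 genes reached 1 FPKM, and the smallest steps between values gave a depth of 0.932 to 1.066 relative to si-NC 1. Absolute depth is unknown. The libraries did not fall into 2 tight groups. The median absolute difference per gene between libraries, on the log2(FPKM + 1) scale, was 0.0702 between si-CIRBP 2 and si-CIRBP 3, but 0.227 and 0.220 between these and si-CIRBP 1. In si-NC it was 0.129 between libraries 1 and 3, 0.135 between 2 and 3 and 0.221 between 1 and 2. Between the groups the pairs differed by 0.200 to 0.344, so the widest pairs within a group were farther apart than the nearest pair between the groups. Library 1 of each group stood apart in sets of named genes that are described further on, and results are given with and without those libraries where they matter. Mitochondrial transcripts took 6.09%, 9.56% and 6.39% of the summed FPKM in si-NC and 5.44%, 7.91% and 8.06% in the libraries labelled si-CIRBP.

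**Figure D1:**
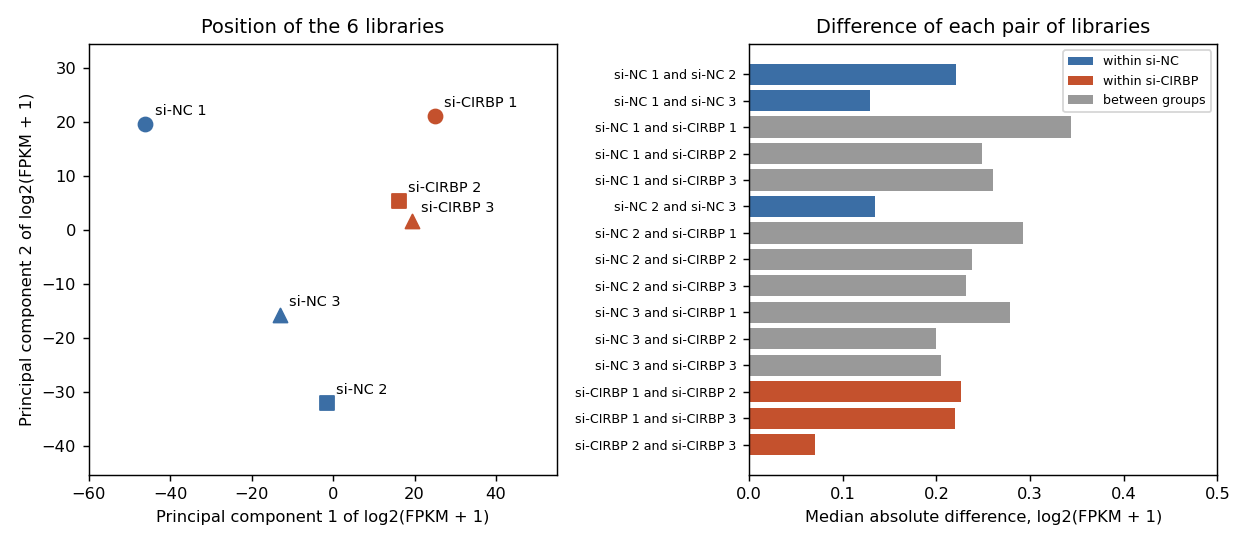
Left, the 6 libraries on the first 2 principal components of log2(FPKM + 1), which held 43.3% and 25.996% of the variance, with si-NC in blue and si-CIRBP in red, and library 1 as a circle, 2 as a square and 3 as a triangle. Right, the median absolute difference per gene of each pair of libraries in log2 units, where the pair of si-CIRBP 2 and 3 is the closest at 0.0702.

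Cirbp itself (ENSRNOG00000015999) was not lower in the libraries labelled si-CIRBP. It stood at 29.0, 24.2 and 27.0 FPKM in si-NC 1 to 3 and at 26.5, 28.6 and 27.7 FPKM in si-CIRBP 1 to 3 (log2 difference 0.05 ± 0.089 SE, adjusted p = 0.763 with limma). The groups overlapped, and an exact two-sided permutation test over the 6 libraries gave p = 0.7, where 0.1 is the smallest value that 3 against 3 allows. The mRNA thus goes against the label. The group is called the libraries labelled si-CIRBP throughout, and no direction given below rests on a measured loss of Cirbp. Protein was not measured in the data used here. Rbm3 (ENSRNOG00000005387), the closest relative of Cirbp and also induced by cold, was at 273, 272 and 273 FPKM in the si-NC libraries, against 299.7, 305 and 305 FPKM in those labelled si-CIRBP, without overlap and short of the threshold (log2 difference 0.15 ± 0.066 SE, adjusted p = 0.194). None of the 9 tested cold-shock and stress RNA-binding proteins was called with limma, and 0 were higher and 1 lower at an unadjusted p under 0.05. Among all 13521 genes tested, 3730 had an unadjusted p under 0.05 in either direction.

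Of 13521 genes tested, 1118 differed between the groups at an adjusted p under 0.05 (8.27%), 852 lower (6.3%) and 266 higher (1.97%) in the libraries labelled si-CIRBP. The changes of at least 1 on the log2 scale were 155 falls and 26 rises. The 3 values of the libraries labelled si-CIRBP all lay below those of si-NC in 3285 genes (24.3%) and all above them in 1604 (11.9%), and the 1118 called genes were all among these. The median gene stood at -0.04 on the log2 scale. Scaling the libraries to a common median moved that by 0.10, to 0.06. It turned the split from 23.8% of calls higher to 53.4% higher (611 against 533 genes). Scaling by median ratios gave 40.1% higher (454 against 677), so the excess of lower genes depends on the scaling. Medians of gene lists are given below relative to the median of all genes for that reason. Without library 1 of both groups, 2493 genes were called, 1597 lower (11.8%) and 896 higher (6.63%), and 1072 of the 1118 were among them. Leaving out a single library moved the count to 384 without si-NC 1, 424 without si-NC 2, 67 without si-NC 3, 1881 without si-CIRBP 1, 103 without si-CIRBP 2 and 99 without si-CIRBP 3. In that order 282, 346, 61, 1368, 89 and 89 were lower and 102, 78, 6, 513, 14 and 10 higher. Counts of list members in these fits, given below, are to be read beside these numbers. The direction of the 1118 genes could not turn in these 6 fits, since their groups did not overlap. In every one of the fits 65 genes passed the test, 60 lower and 5 higher.

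**Figure D2:**
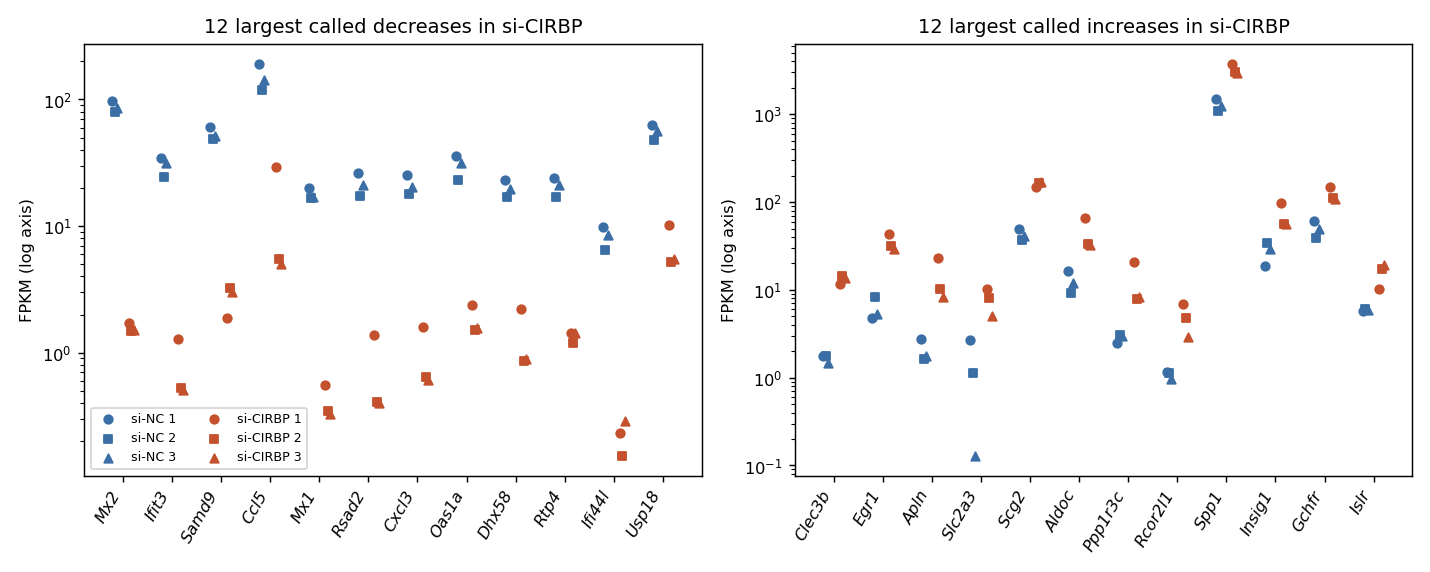
FPKM in each library (log axis) of the 12 largest called falls (left) and rises (right), with si-NC in blue and si-CIRBP in red. The genes were taken from those whose groups do not overlap, and Mx2 falls from 80.0 to 98.1 FPKM to 1.48 to 1.71 FPKM.

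The deepest falls were of interferon-induced antiviral genes. Of 41 tested members of that list, 36 fell with the si-CIRBP label and none rose, against 6.3% and 1.97% of all genes, and the list median was -1.69 relative to all genes. Mx2 (ENSRNOG00000001963), a dynamin-like GTPase that restricts viruses, stood at 98.1, 80.0 and 85.9 FPKM in the si-NC libraries, against 1.71, 1.48 and 1.52 FPKM in those labelled si-CIRBP (log2 difference -5.11 ± 0.10 SE, adjusted p = 1.68e-05 with limma), the largest called change of either direction. Its relative Mx1 went from 20.1, 16.7 and 17.0 FPKM to 0.552, 0.347 and 0.327 FPKM (log2 difference -3.75 ± 0.13 SE, adjusted p = 0.000162). In both genes every library labelled si-CIRBP lay far below every si-NC library. The list holds members of near-identical gene families (Mx, Ifit, Oas), whose shared reads the counting may have split, so single members are less certain than the group.

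The genes with the deepest falls served several steps of antiviral defence. Ifit3, a member of a family that binds viral RNA and blocks its translation, went from 34.7, 24.5 and 31.2 to 1.28, 0.53 and 0.511 FPKM (log2 difference -4.15 ± 0.21 SE, adjusted p = 0.000581 with limma). Oas1a, which makes the messenger that activates RNase L, went from 35.6, 23.2 and 31.6 to 2.36, 1.499 and 1.56 FPKM (log2 difference -3.46 ± 0.19 SE, adjusted p = 0.000845). Rsad2 (viperin), an enzyme that makes a chain-terminating nucleotide, went from 26.3, 17.3 and 21.1 to 1.38, 0.406 and 0.401 FPKM (log2 difference -3.73 ± 0.26 SE, adjusted p = 0.00169). In Rsad2 and Ifit3, si-CIRBP 1 kept a higher level than si-CIRBP 2 and 3 and still lay far below every si-NC library. Samd9, an antiviral factor that acts on translation, was at 60.9, 48.4 and 51.6 and 1.88, 3.27 and 3.01 FPKM (log2 difference -3.89 ± 0.17 SE, adjusted p = 0.000432), and there si-CIRBP 1 was the lowest library. Bst2 (tetherin), which holds budding viruses at the cell surface, went from 95.1, 75.7 and 78.0 to 15.5, 7.16 and 10.3 FPKM (log2 difference -2.86 ± 0.25 SE, adjusted p = 0.00427). Oas2 went from 3.69, 3.24 and 3.43 FPKM to 0.0593 FPKM in si-CIRBP 1 and 0.0133 FPKM in si-CIRBP 3 and was listed at 0 in si-CIRBP 2 (log2 difference -2.12 ± 0.12 SE, adjusted p = 0.000892).

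Other members of the list fell as well. Lgals3bp, a secreted glycoprotein, was at 294, 294 and 281 FPKM in the si-NC libraries, against 89.1, 83.1 and 87.1 FPKM in those labelled si-CIRBP (log2 difference -1.73 ± 0.067 SE, adjusted p = 0.000277 with limma). Xaf1, a pro-apoptotic interferon target, was at 43.9, 36.0 and 38.5 and 5.48, 5.70 and 6.24 FPKM (log2 difference -2.57 ± 0.10 SE, adjusted p = 0.000277). Isg15, the ubiquitin-like modifier, was at 39.5, 28.0 and 33.3 and 9.61, 3.27 and 3.77 FPKM (log2 difference -2.51 ± 0.35 SE, adjusted p = 0.0153). Usp18, the protease that removes it and dampens receptor signalling, was at 62.9, 47.5 and 56.8 and 10.3, 5.16 and 5.53 FPKM (log2 difference -2.88 ± 0.24 SE, adjusted p = 0.00406). In the Isg15 and Usp18 values si-CIRBP 1 again lay above the other libraries of its label and below all si-NC libraries. Ifi27, the most abundant falling member, was at 636, 411 and 644 and 223, 171 and 205 FPKM (log2 difference -1.47 ± 0.20 SE, adjusted p = 0.0141). The calls of Isg15 and Ifi27 were lost without si-NC 3, si-CIRBP 2 or si-CIRBP 3 (adjusted p up to 0.0855 and 0.0808).

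The 5 tested effectors that were not called were Ifitm1, Ifitm2, Ifitm3, Cxcl10 and Cxcl11. Ifitm2 stood at 19.3, 79.1 and 54.4 and 84.7, 75.6 and 95.6 FPKM (adjusted p = 0.256). Ifitm3 stood at 23.8, 119.8 and 73.7 and 61.7, 49.4 and 61.2 FPKM (adjusted p = 0.956). Both are membrane proteins that hinder viral entry, and their si-NC 1 values lay far below those of si-NC 2 and 3. Cxcl10, a chemokine for T cells, stood at 123, 97.1 and 107 and 181, 46.2 and 47.8 FPKM, with the highest value of all 6 in si-CIRBP 1 and the lowest in si-CIRBP 2 and 3 (log2 difference -0.55, adjusted p = 0.537 with limma, and 0.00438 without library 1 of both groups). Ifit1 and Epsti1 were too low to be tested. The number of effectors called lower was 32 without si-NC 1, 34 without si-NC 2, 21 without si-NC 3, 38 without si-CIRBP 1, 25 without si-CIRBP 2 and 26 without si-CIRBP 3. Of the list, 21 members were among the 60 genes that stayed called as lower in all 6 of these fits. Of 4 macrophage markers in the table, from a cell type with a strong interferon response, Csf1r was at no more than 0.20 FPKM in any library, Cd68 at 1.78 to 3.87 FPKM, Lyz2 at 0.130 to 1.66 FPKM and Cd14 at 12.8 to 15.0 FPKM. Their summed level was 18.5 to 20.0 FPKM in si-NC and 15.6 to 17.0 FPKM under the si-CIRBP label, and its part in the fall was not tested.

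Promoters of the genes that fell are shown here because the response element can be read in them. From the RefSeq promoter table (build GRCr8, 250 bases before to 50 after the start), 8785 of the tested genes had an entry. The core of the element, GAAANNGAA on either strand, occurred in 26 of 34 effectors with an entry (76.5%), 9 of 13 MHC class I genes (69.2%) and 2 of 6 RNA and DNA sensors (33.3%), against 7.0% of the tested genes and 9.7% of all 33469 promoters. It occurred in 15.0% of the promoters of genes called lower and 3.6% of those called higher, and in 20 of the 38 with an entry among the 60 genes that fell in all 6 fits (52.6%). Each line gives the 180 bases before the start and the first base of the gene, on its own strand, with the element in capitals (where it lies on the other strand, capitals show its reverse complement).
Ifit3, chr1:241527146-241527326, plus strand: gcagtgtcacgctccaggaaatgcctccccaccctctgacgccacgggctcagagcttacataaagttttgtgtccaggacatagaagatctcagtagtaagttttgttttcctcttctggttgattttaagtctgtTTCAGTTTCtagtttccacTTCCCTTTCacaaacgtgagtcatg
Samd9, chr4:32138958-32139138, minus strand: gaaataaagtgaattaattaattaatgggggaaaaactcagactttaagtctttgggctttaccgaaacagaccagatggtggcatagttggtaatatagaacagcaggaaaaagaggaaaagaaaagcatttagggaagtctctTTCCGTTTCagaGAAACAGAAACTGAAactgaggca
Oas1a, chr12:41330286-41330466, plus strand: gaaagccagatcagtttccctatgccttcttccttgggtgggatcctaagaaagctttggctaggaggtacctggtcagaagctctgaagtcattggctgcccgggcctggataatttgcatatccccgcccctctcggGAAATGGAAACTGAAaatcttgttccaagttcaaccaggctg
Xaf1, chr10:57415755-57415935, plus strand: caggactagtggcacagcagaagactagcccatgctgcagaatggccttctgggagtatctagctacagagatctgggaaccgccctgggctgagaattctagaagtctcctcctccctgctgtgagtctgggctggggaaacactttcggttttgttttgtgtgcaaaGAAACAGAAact
The matches in Samd9 and in Oas1a include overlapping ones that share bases, and those of Ifit3, Samd9 and Oas1a lie within 45 bases of the start. Mx1, whose fall was among the deepest, had no match in the window of its entry. These matches describe letters and not binding.

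Among the transcription factors and receptors of the pathway the fall was uneven. Of 15 tested, 4 were called lower and none higher, against 6.3% and 1.97% of all genes, and the list median was -0.04 relative to all genes. Irf9, the DNA-binding part of the interferon-activated complex, stood at 55.3, 47.4 and 49.9 FPKM in the si-NC libraries, against 7.88, 10.3 and 9.21 FPKM in those labelled si-CIRBP (log2 difference -2.36 ± 0.11 SE, adjusted p = 0.000537 with limma), and was the only one of the 4 to pass in all 6 fits with a library left out. Irf7, which amplifies interferon production, stood at 24.4, 61.6 and 57.5 and 5.14, 5.88 and 6.89 FPKM (log2 difference -2.71 ± 0.35 SE, adjusted p = 0.0123), with si-NC 1 well below si-NC 2 and 3 but still above the other group. Its call was lost without si-NC 3, si-CIRBP 2 or si-CIRBP 3 (adjusted p up to 0.0763), and Stat2 (log2 difference -0.75, adjusted p = 0.0452) kept its call only without si-NC 1 and lost it under both scalings (adjusted p 0.0743 and 0.067). Irf1 showed a split inside the label, at 36.9, 29.7 and 32.6 FPKM in si-NC, 65.5 FPKM in si-CIRBP 1 and 22.8 and 22.7 FPKM in si-CIRBP 2 and 3 (adjusted p = 0.98). The receptor subunit Ifnar1 (0.11, adjusted p = 0.504) and the receptor kinase Jak1 (0.13, adjusted p = 0.288) were not called.

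Sensors of foreign RNA and DNA, themselves interferon targets, were called lower in 6 of 10, against 6.3% of all genes. The list median was -0.96 relative to all genes. Ifih1 (MDA5), a helicase that binds long double-stranded RNA, stood at 20.1, 16.7 and 18.3 and 5.004, 4.78 and 4.87 FPKM (log2 difference -1.72 ± 0.098 SE, adjusted p = 0.000865 with limma). Dhx58 (LGP2), its helper, fell further, from 23.2, 17.0 and 19.8 to 2.22, 0.862 and 0.883 FPKM (log2 difference -3.22 ± 0.24 SE, adjusted p = 0.00266). Eif2ak2 (PKR), the kinase that stops translation on sensing such RNA, was the tightest of the list, at 48.1, 49.5 and 49.7 and 21.0, 20.5 and 21.2 FPKM (log2 difference -1.19 ± 0.064 SE, adjusted p = 0.000726). These 3 stayed called with any library left out. Ddx58 (RIG-I) stood at 55.7, 39.1 and 47.1 and 16.6, 11.6 and 11.5 FPKM (log2 difference -1.77 ± 0.18 SE, adjusted p = 0.00687), and its call was lost without si-NC 3 (adjusted p = 0.0517). Across the list the members called lower numbered 5 without si-NC 1, 5 without si-NC 2, 3 without si-NC 3, 7 without si-CIRBP 1, 5 without si-CIRBP 2 and 5 without si-CIRBP 3.

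Genes of antigen presentation on MHC class I, which interferon also raises, fell to a lesser extent. Of 14 tested, 7 were called lower and none higher (list median -0.53 relative to all genes), and 10 lower without library 1 of both groups. The shares of all genes called lower were 6.3% and 11.8% in that order. B2m, the light chain of all class I molecules, stood at 659, 791 and 659 FPKM in the si-NC libraries, against 423, 319 and 333 FPKM in those labelled si-CIRBP (log2 difference -0.98 ± 0.14 SE, adjusted p = 0.0163 with limma). Tap1, which pumps peptides into the endoplasmic reticulum, stood at 32.0, 23.0 and 29.9 and 14.5, 10.8 and 11.8 FPKM (log2 difference -1.13 ± 0.16 SE, adjusted p = 0.0154). The class I gene RT1-S3 stood at 47.6, 27.2 and 38.3 and 13.1, 12.4 and 12.9 FPKM (log2 difference -1.45 ± 0.19 SE, adjusted p = 0.0134). None of the 3 overlapped between the groups, as no called gene did. These falls were less firm than those of the effectors. The MHC class I members called lower numbered 4, 6 and 0 without si-NC 1, 2 and 3 in turn. They numbered 10, 0 and 0 without si-CIRBP 1, 2 and 3 in turn. The calls of B2m, Tap1, RT1-S3 and the chaperone Tapbp (-0.64) were all lost without si-NC 3, si-CIRBP 2 or si-CIRBP 3 (adjusted p up to 0.0966).

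NF-kB genes were lower too, with si-CIRBP 1 between the groups in part of them. Of 15 subunits and inhibitors tested, 5 were called lower and none higher (list median -0.61 relative to all genes). Without library 1 of both groups 12 were called lower. The shares of all genes called lower were 6.3% and 11.8% in that order. Rela, the main activating subunit, stood at 55.8, 58.2 and 53.3 FPKM in the si-NC libraries, against 40.2, 37.4 and 39.5 FPKM in those labelled si-CIRBP (log2 difference -0.50 ± 0.070 SE, adjusted p = 0.0154 with limma). Nfkb2, the subunit of the non-canonical branch, stood at 119, 95.0 and 102 and 53.4, 28.8 and 33.1 FPKM (log2 difference -1.47 ± 0.23 SE, adjusted p = 0.0192). Its partner Relb stood at 35.7, 25.8 and 29.2 and 15.1, 8.71 and 10.2 FPKM (log2 difference -1.36 ± 0.21 SE, adjusted p = 0.0193). These 3 kept their groups apart, as all called genes did, while the feedback inhibitors Nfkbia and Tnfaip3 did not. Nfkbia, which is induced by NF-kB and returns it to the cytoplasm, stood at 123, 102 and 108 FPKM in si-NC but at 190.0 FPKM in si-CIRBP 1 and 39.8 and 45.2 FPKM in si-CIRBP 2 and 3 (adjusted p = 0.508, and 0.0043 without library 1 of both groups). Tnfaip3 (A20), another feedback inhibitor, stood at 29.7, 22.5 and 26.5 and 24.5, 5.48 and 5.80 FPKM (adjusted p = 0.148, and 0.00263 without library 1). Members called lower numbered 2 without si-NC 1, 3 without si-NC 2, 0 without si-NC 3, 11 without si-CIRBP 1, 0 without si-CIRBP 2 and 0 without si-CIRBP 3. The 5 calls (Rela, Nfkb1, Nfkb2, Relb and the inhibitor Nfkbie) were each lost without si-NC 3, si-CIRBP 2 or si-CIRBP 3 (adjusted p up to 0.113, for Nfkbie), those of Nfkb2 and Nfkbie also without si-NC 1 or 2 and that of Relb also without si-NC 1. The NF-kB core GGGANTTTC, on either strand, occurred in 5 of 13 of these genes with a promoter entry (38.5%), against 1.2% of the tested genes. It also occurred in 3 of 13 MHC class I genes (23.1%), 2 of 11 interferon factors and receptors (18.2%) and 2 of 27 inflammatory ligands and receptors (7.4%). The share was 3.5% in genes called lower and 0.5% in those called higher.

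The same split ran through chemokines and cytokines. Of 32 inflammatory ligands and receptors tested, 6 were called lower and none higher (list median -0.44 relative to all genes with all 6 libraries). Without library 1 of both groups 22 were lower and none higher. The shares of all genes called lower were 6.3% and 11.8% in that order. Cxcl3, a chemokine for neutrophils, fell in all 3 libraries, from 25.2, 18.0 and 20.4 to 1.60, 0.646 and 0.607 FPKM (log2 difference -3.53 ± 0.22 SE, adjusted p = 0.00128 with limma). Cxcl16, a membrane-bound chemokine, went from 28.7, 26.7 and 24.3 to 14.0, 11.3 and 11.4 FPKM (log2 difference -1.07 ± 0.11 SE, adjusted p = 0.00757). Both calls held with any library left out. Cx3cl1, fractalkine, went from 13.3, 10.1 and 9.87 to 2.63, 0.541 and 0.446 FPKM (log2 difference -2.58 ± 0.36 SE, adjusted p = 0.0154), a call lost without si-NC 3, si-CIRBP 2 or si-CIRBP 3 (adjusted p up to 0.0823). Ccl5, a chemokine for T cells and monocytes, went from 192, 118 and 144 FPKM to 29.1 FPKM in si-CIRBP 1 and 5.47 and 4.97 FPKM in si-CIRBP 2 and 3 (log2 difference -3.83 ± 0.62 SE, adjusted p = 0.0215). Its call was lost in every fit with a library left out but that without si-CIRBP 1 (adjusted p up to 0.101). Members of the list called lower numbered 3 without si-NC 1, 3 without si-NC 2, 2 without si-NC 3, 21 without si-CIRBP 1, 2 without si-CIRBP 2 and 2 without si-CIRBP 3.

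In the most abundant chemokines, si-CIRBP 1 was at or near the si-NC level while si-CIRBP 2 and 3 were several times lower. Ccl2, the main monocyte chemokine, stood at 1788, 1544 and 1541 FPKM in si-NC, 1467 FPKM in si-CIRBP 1 and 358 and 446 FPKM in si-CIRBP 2 and 3 (adjusted p = 0.136, and 0.00455 without library 1 of both groups). Cxcl1, a neutrophil chemokine, stood at 463, 368 and 389.9, 588 and 59.5 and 86.3 FPKM in the same order (adjusted p = 0.291, and 0.00612 without library 1). Both are well-known targets of NF-kB. Lif, a cytokine of the IL-6 family, turned around within the label, at 26.4, 18.5 and 21.9 FPKM in si-NC, 126 FPKM in si-CIRBP 1 and 6.28 and 7.37 FPKM in si-CIRBP 2 and 3 (log2 difference -0.22, adjusted p = 0.918, and -1.44 with 0.00709 without library 1). Csf2, a growth factor for granulocytes and macrophages, stood at 9.58, 10.1 and 11.1 FPKM in si-NC, 115 FPKM in si-CIRBP 1 and 1.15 and 1.23 FPKM in si-CIRBP 2 and 3 (adjusted p = 0.878, and 0.00166 without library 1). The list median per library, relative to the si-NC mean, was -0.03 in si-CIRBP 1 and -0.77 and -0.74 in si-CIRBP 2 and 3. Fewer cells that make these ligands and less RNA in each cell cannot be told apart in such bulk libraries.

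**Figure D3:**
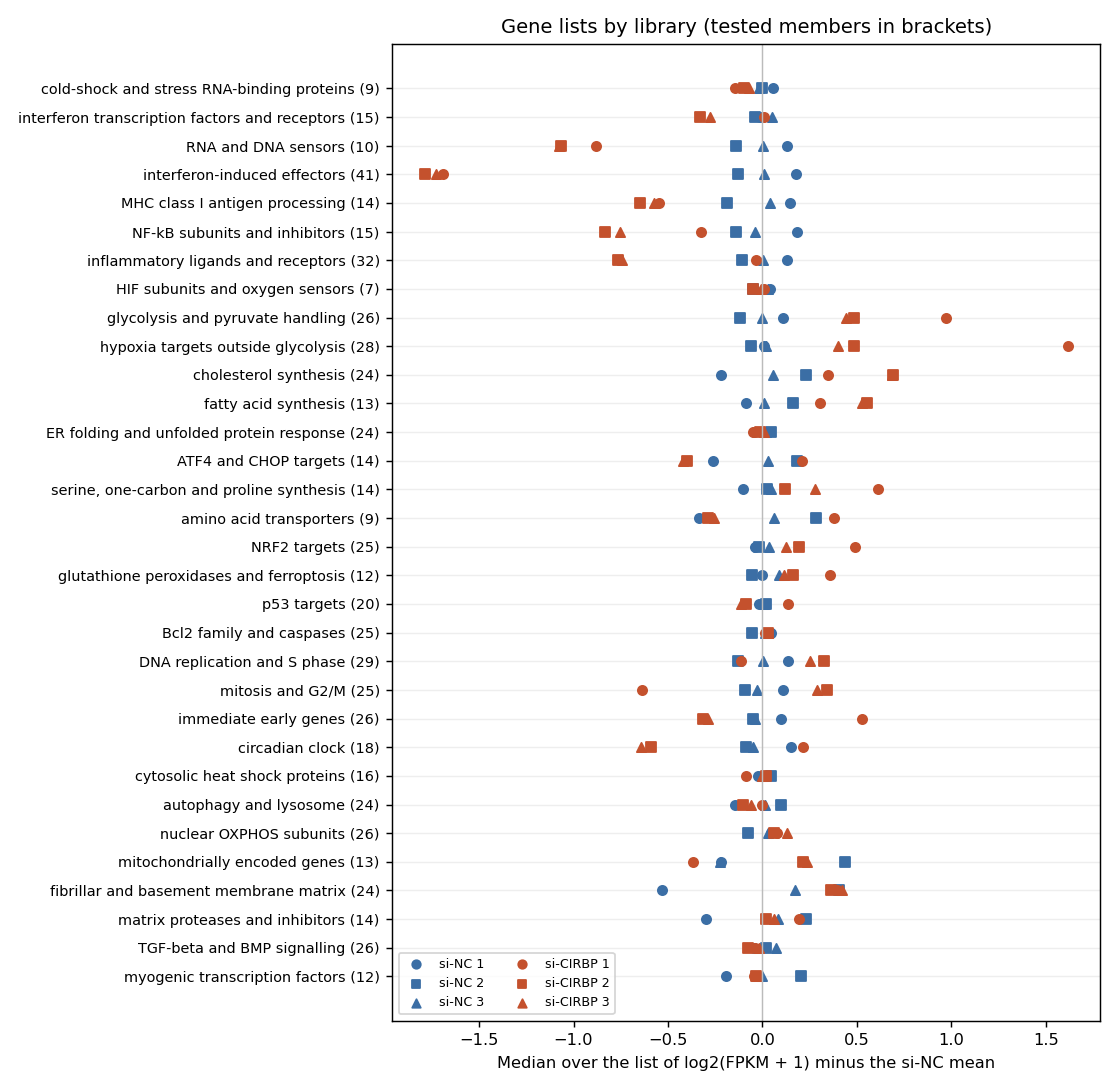
Median over each gene list of log2(FPKM + 1) minus the si-NC mean, for each of the 6 libraries (si-NC blue, si-CIRBP red; circle, square and triangle for libraries 1, 2 and 3), with the number of tested members in brackets. The effectors lie at -1.69 to -1.79 in all 3 libraries labelled si-CIRBP, while si-CIRBP 1 is apart from si-CIRBP 2 and 3 in hypoxia targets, inflammatory ligands, mitosis and the clock.

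Few genes rose by as much, and Clec3b and Egr1 rose the most of the called genes. Clec3b (ENSRNOG00000004540), tetranectin, a secreted protein that binds plasminogen, stood at 1.75, 1.78 and 1.48 FPKM in the si-NC libraries, against 11.7, 14.4 and 13.8 FPKM in those labelled si-CIRBP (log2 difference 2.42 ± 0.12 SE, adjusted p = 0.000581 with limma). Egr1, a zinc finger factor induced within minutes by growth signals, stood at 4.75, 8.36 and 5.29 and 43.7, 31.5 and 29.1 FPKM (log2 difference 2.34 ± 0.23 SE, adjusted p = 0.00598). Scg2, secretogranin II, a precursor of secreted peptides, stood at 49.1, 36.9 and 41.2 and 149.8, 165 and 168 FPKM (log2 difference 1.91 ± 0.12 SE, adjusted p = 0.00108). With Nqo1 and Mrc2 these 3 made up the 5 genes called higher with any library left out. Nqo1, a quinone reductase and a classic target of the factor Nrf2, stood at 78.0, 71.8 and 86.8 and 157, 166 and 164 FPKM (log2 difference 1.04 ± 0.087 SE, adjusted p = 0.00399). Mrc2, an endocytic collagen receptor, stood at 25.0, 23.9 and 24.8 and 43.9, 46.3 and 44.4 FPKM (log2 difference 0.84 ± 0.066 SE, adjusted p = 0.00285). The values of these 5 genes did not overlap between the groups, as in every called gene.

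Other large rises were less even. Spp1, osteopontin, a secreted matrix and cytokine-like protein and the most abundant of them, stood at 1492, 1093 and 1235 FPKM in the si-NC libraries, against 3777, 3038 and 2985 FPKM in those labelled si-CIRBP (log2 difference 1.36 ± 0.17 SE, adjusted p = 0.0111 with limma). Gchfr, the feedback regulator of tetrahydrobiopterin synthesis, stood at 60.2, 38.7 and 49.5 and 147, 112 and 109 FPKM (log2 difference 1.30 ± 0.19 SE, adjusted p = 0.0163). The calls of Spp1 and Gchfr were lost without si-NC 3, si-CIRBP 2 or si-CIRBP 3 (adjusted p up to 0.0784 and 0.0889). Islr, a secreted leucine-rich protein of mesenchymal cells, was the reverse of most, with the lowest of its 3 values in si-CIRBP 1, at 5.72, 6.08 and 5.88 and 10.2, 17.3 and 19.3 FPKM (log2 difference 1.22 ± 0.22 SE, adjusted p = 0.0288). It kept its call only without si-CIRBP 1 (adjusted p up to 0.124 in the other fits). Rcor2l1 stood at 1.17, 1.13 and 0.956 and 6.86, 4.74 and 2.89 FPKM (log2 difference 1.43 ± 0.26 SE, adjusted p = 0.0283) and lost its call without si-NC 1, 2 or 3 or si-CIRBP 2 (adjusted p up to 0.126). Tnc, tenascin C, a matrix protein of injured tissue, stood at 292, 208 and 240.4 and 474, 404 and 389 FPKM (log2 difference 0.78 ± 0.15 SE, adjusted p = 0.031). S100a4, a calcium-binding protein of mesenchymal cells, stood at 1251, 1019 and 1126 and 1777, 1951 and 2021 FPKM (log2 difference 0.76, adjusted p = 0.0213). The calls of Tnc and S100a4 were lost without si-NC 3, si-CIRBP 2 or si-CIRBP 3 (adjusted p up to 0.136 and 0.113), that of Tnc also without si-NC 2. S100 genes form a family of similar sequence and are less certain when taken singly.

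Genes of hypoxia and glycolysis made up a further share of the rises, often with higher values in si-CIRBP 1 than in si-CIRBP 2 and 3. Aldoc, an aldolase of glycolysis, stood at 16.6, 9.32 and 11.9 FPKM in si-NC, 66.3 FPKM in si-CIRBP 1 and 33.7 and 32.2 FPKM in si-CIRBP 2 and 3 (log2 difference 1.68 ± 0.32 SE, adjusted p = 0.0319 with limma). Slc2a3, a glucose transporter, stood at 2.70, 1.13 and 0.128 and 10.1, 8.09 and 5.04 FPKM (log2 difference 2.03 ± 0.45 SE, adjusted p = 0.0456). Ppp1r3c, which directs glycogen synthesis, stood at 2.50, 3.06 and 2.96 and 20.7, 7.92 and 8.21 FPKM (log2 difference 1.66 ± 0.35 SE, adjusted p = 0.0398). Apln, apelin, a hypoxia-induced vascular peptide, stood at 2.74, 1.63 and 1.75 and 23.3, 10.2 and 8.25 FPKM (log2 difference 2.18 ± 0.37 SE, adjusted p = 0.0244). The groups did not overlap in these 4, which holds for every called gene. Each of the 4 calls was lost without si-NC 2, si-NC 3, si-CIRBP 2 or si-CIRBP 3 (adjusted p up to 0.144, for Ppp1r3c). That of Slc2a3 was also lost without si-CIRBP 1 and that of Ppp1r3c also without si-NC 1. Aldoc is also a marker of astrocytes, and the others of that list, Gfap among them, were not called.

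Of 26 tested genes of glycolysis and pyruvate handling 3 were called higher and none lower, and 13 higher without library 1 of both groups, where 6.63% of all genes were. Of 28 hypoxia targets outside glycolysis 2 were called higher with all libraries, and 13 higher and 3 lower without library 1. Among all genes 1.97% were called higher with the 6 libraries, and 6.63% higher and 11.8% lower without library 1. The list medians were 0.70 and 0.78 relative to all genes. Their medians per library show the split, at 0.97 in si-CIRBP 1 against 0.48 and 0.44 in si-CIRBP 2 and 3 for glycolysis, and at 1.62 against 0.49 and 0.40 for the hypoxia targets. Hk2, the inducible hexokinase, stood at 22.2, 20.8 and 20.4 FPKM in si-NC, 89.3 FPKM in si-CIRBP 1 and 36.4 and 30.9 FPKM in si-CIRBP 2 and 3 (adjusted p = 0.119, and 0.0178 without library 1). Pdk1, which closes the entry of pyruvate into mitochondria, stood at 17.7, 15.9 and 15.6, 86.9 and 34.1 and 31.1 FPKM in the same order (adjusted p = 0.0662, and 0.00524 without library 1), so both were above si-NC in all 3 libraries of the label. Ankrd37, a short ankyrin protein strongly induced by hypoxia, reached 82.3 FPKM in si-CIRBP 1 and 8.62 and 6.39 FPKM in si-CIRBP 2 and 3, from 4.18, 2.21 and 2.39 FPKM (adjusted p = 0.166, and 0.0128 without library 1). The number of glycolysis genes called higher was 2 without si-NC 1, 0 without si-NC 2, 0 without si-NC 3, 7 without si-CIRBP 1, 0 without si-CIRBP 2 and 0 without si-CIRBP 3. Hypoxia targets called higher numbered 0 without si-NC 1, 0 without si-NC 2, 0 without si-NC 3, 13 without si-CIRBP 1, 0 without si-CIRBP 2 and 0 without si-CIRBP 3. Without si-CIRBP 1, 3 hypoxia targets were called lower as well. Among all 13521 genes 102, 78, 6, 513, 14 and 10 were called higher in these fits, in the same order.

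Bnip3 and Vegfa show how far si-CIRBP 1 departed. Bnip3, which directs mitochondria to autophagy, stood at 46.0, 42.0 and 46.2 FPKM in si-NC, 320.2 FPKM in si-CIRBP 1 and 93.8 and 79.8 FPKM in si-CIRBP 2 and 3 (adjusted p = 0.104, and 0.0114 without library 1 of both groups). Vegfa, the vascular growth factor, stood at 23.2, 37.0 and 27.5 FPKM in si-NC, 128 FPKM in si-CIRBP 1 and 36.3 and 32.0 FPKM in si-CIRBP 2 and 3 (adjusted p = 0.335, and 0.693 without library 1), so it was high in si-CIRBP 1 only. The mRNA of the oxygen-sensitive subunit itself, Hif1a, fell, from 58.8, 53.9 and 57.4 to 41.0, 43.7 and 43.2 FPKM (log2 difference -0.40 ± 0.070 SE, adjusted p = 0.0259 with limma), a call lost without si-NC 1, si-NC 3, si-CIRBP 2 or si-CIRBP 3 (adjusted p up to 0.138). It was the only call among the 7 HIF subunits and oxygen sensors, where 6.3% of all genes were called lower.

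Promoters of the hypoxia genes are shown for the core of the hypoxia response element. The letters ACGTG, on either strand, occurred in 14 of 23 glycolysis genes with an entry in the RefSeq table (60.9%) and 14 of 21 hypoxia targets (66.7%), against 26.2% of the tested genes and 19.3% of all promoters. They also occurred in 25.4% of the promoters of genes called higher and 28.1% of those called lower, in 8 of 15 clock genes and in 8 of 16 autophagy and lysosome genes with an entry. The same window of build GRCr8 is given as in the lines above, with the core or its reverse complement in capitals. The letters CACGTG hold it on both strands at once, in matches that overlap.
Aldoc, chr10:63715364-63715544, plus strand: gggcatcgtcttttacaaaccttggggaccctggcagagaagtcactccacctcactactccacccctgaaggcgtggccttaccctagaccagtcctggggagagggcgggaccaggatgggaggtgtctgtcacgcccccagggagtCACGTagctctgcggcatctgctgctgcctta
Ppp1r3c, chr1:243878527-243878707, minus strand: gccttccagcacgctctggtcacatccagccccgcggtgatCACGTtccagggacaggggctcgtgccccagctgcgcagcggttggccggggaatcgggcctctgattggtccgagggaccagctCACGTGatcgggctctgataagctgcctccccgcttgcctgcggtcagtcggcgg
Ankrd37, chr16:53001327-53001507, plus strand: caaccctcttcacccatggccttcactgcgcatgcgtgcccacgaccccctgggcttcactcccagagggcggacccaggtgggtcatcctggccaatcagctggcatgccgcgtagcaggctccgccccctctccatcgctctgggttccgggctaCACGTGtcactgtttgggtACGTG
Ak4, a mitochondrial adenylate kinase called higher at 9.16, 6.56 and 8.0003 and 29.1, 16.3 and 14.8 FPKM (log2 difference 1.19 ± 0.26 SE, adjusted p = 0.0434 with limma, lost in every fit with a library left out but that without si-CIRBP 1, adjusted p up to 0.152), had no match in the window of its entry.

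In sterol synthesis the list median was higher in si-CIRBP 2 and 3 (0.69 each, relative to the si-NC mean) than in si-CIRBP 1 (0.35). Of 24 tested genes 5 were called higher and none lower (list median 0.61 relative to all genes). The number higher was 16 without library 1 of both groups, 11 after scaling to a common median and 8 after scaling by median ratios. Among all genes 1.97% were higher with the 6 libraries and 6.63% without library 1. After scaling, 611 and 454 of 13521 were. Msmo1, which removes methyl groups from sterols, stood at 71.7, 80.5 and 81.7 FPKM in the si-NC libraries, against 117, 137 and 139 FPKM in those labelled si-CIRBP (log2 difference 0.74 ± 0.098 SE, adjusted p = 0.0134 with limma). Dhcr7, the last step to cholesterol, stood at 10.3, 15.1 and 13.4 and 24.0, 23.6 and 24.0 FPKM (log2 difference 0.85 ± 0.14 SE, adjusted p = 0.0214). Stard4, a carrier of sterols, stood at 5.38, 4.90 and 5.18 and 10.2, 9.63 and 9.10 FPKM (log2 difference 0.79 ± 0.095 SE, adjusted p = 0.0107). None of these overlapped between the groups, as no called gene did. Srebf2, the factor that drives the pathway, stood at 30.2, 36.1 and 33.2 and 44.8, 57.3 and 56.4 FPKM (log2 difference 0.65 ± 0.12 SE, adjusted p = 0.0306). The calls of Msmo1, Dhcr7, Stard4 and Srebf2 were lost without si-NC 3, si-CIRBP 2 or si-CIRBP 3 (adjusted p up to 0.133, for Srebf2), that of Srebf2 also without si-NC 1 or 2. Insig1, which holds the pathway back when sterols abound, was the largest call, at 18.7, 34.1 and 29.0 and 97.6, 56.2 and 56.9 FPKM (log2 difference 1.33 ± 0.29 SE, adjusted p = 0.0436). Its highest value was in si-CIRBP 1, and its call was lost in each of the 6 fits with a library left out (adjusted p up to 0.143). The number of sterol genes called higher was 3 without si-NC 1, 3 without si-NC 2, 0 without si-NC 3, 11 without si-CIRBP 1, 0 without si-CIRBP 2 and 0 without si-CIRBP 3. The letters ATCACNCCA of a sterol regulatory element, on either strand, occurred in 1 of 17 sterol genes with a promoter entry (5.9%), against 0.4% of the tested genes. Library si-NC 1, the lowest of its label in Dhcr7 and Srebf2, was at -0.22 in the list median against the si-NC mean. Smooth muscle markers were also low in that library, and their part in these rises was not tested.

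Fatty acid synthesis showed the same direction in 4 of 13 tested genes and no fall (list median 0.50 relative to all genes). Without library 1 of both groups 9 were higher. The shares of all genes called higher were 1.97% and 6.63% in that order. Scd2, a desaturase that makes oleate, stood at 278, 379 and 314 FPKM in the si-NC libraries, against 572, 652 and 640.1 FPKM in those labelled si-CIRBP (log2 difference 0.95 ± 0.13 SE, adjusted p = 0.0151 with limma). Elovl5, an elongase of polyunsaturated fatty acids, had log2 difference 0.56 (adjusted p = 0.0121), Acsl3, which activates fatty acids, 0.75 (0.0179) and Acly, which supplies cytosolic acetyl-CoA, 0.46 (0.0374). In si-CIRBP 1, 2 and 3 the values of Scd2 were all above the highest of si-NC, as in every gene called higher. Members called higher numbered 2 without si-NC 1, 3 without si-NC 2, 0 without si-NC 3, 6 without si-CIRBP 1, 0 without si-CIRBP 2 and 0 without si-CIRBP 3. The 4 calls were all lost without si-NC 3, si-CIRBP 2 or si-CIRBP 3 (adjusted p up to 0.152, for Acly), that of Acsl3 also without si-NC 1 and that of Acly also without si-NC 1 or 2.

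Cell cycle genes were not called as a group with all 6 libraries, and the libraries labelled si-CIRBP held opposite values. Of 25 genes of mitosis none was called with limma. At an unadjusted p under 0.05, 2 were higher and 0 lower, against 3730 of all 13521 genes in either direction. Without library 1 of both groups 16 were called higher, where 6.63% of all genes were. Without si-CIRBP 1 alone 10 were, where 513 of all 13521 genes were. Cdk1, the kinase that starts mitosis, stood at 87.0, 72.9 and 88.3 FPKM in si-NC, 73.5 FPKM in si-CIRBP 1 and 119.9 and 118 FPKM in si-CIRBP 2 and 3 (adjusted p = 0.399, and 0.0298 without library 1). Its partner cyclin Ccnb1 stood at 57.7, 40.8 and 52.95, 26.02 and 71.4 and 70.1 FPKM (adjusted p = 0.977, and 0.042 without library 1), so that si-CIRBP 1 was the lowest and si-CIRBP 2 and 3 the highest of the 6. The proliferation marker Mki67 had 70.1, 77.1 and 67.1, 33.7 and 77.7 and 71.4 FPKM, where only si-CIRBP 1 stood apart (adjusted p = 0.558, and 0.729 without library 1). Of 29 genes of DNA replication 1 was called, higher, with all 6 libraries, and 14 were higher without library 1 of both groups. The shares of all genes were 1.97% and 6.63%.

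Outside the interferon genes, 1 immediate early gene, Myc, and 1 clock gene, Dbp, fell and stayed called with any library left out. Myc, a factor that drives growth and ribosome production, stood at 29.1, 25.4 and 24.6 FPKM in the si-NC libraries, against 10.2, 8.43 and 8.27 FPKM in those labelled si-CIRBP (log2 difference -1.46 ± 0.11 SE, adjusted p = 0.00285 with limma). Fos, of the same early response, overlapped at 20.5, 18.1 and 18.2 and 17.4, 22.8 and 24.4 FPKM (adjusted p = 0.485). Of 26 tested immediate early genes Egr1 was called higher and Myc, Klf6 (-0.78) and Fosl2 (-0.78) lower. Among all genes 1.97% were called higher and 6.3% lower, and the list median was 0.08 relative to all genes. Klf6 and Fosl2 lost their calls without si-NC 3, si-CIRBP 2 or si-CIRBP 3 (adjusted p up to 0.0799 and 0.0914), Fosl2 also without si-NC 2. Of 18 clock genes 3 were called lower and none higher, and 10 lower without library 1 of both groups (list median -0.38 relative to all genes). The shares of all genes called lower were 6.3% and 11.8% in that order. Dbp, an output factor of the clock, stood at 54.8, 46.5 and 47.4 and 24.6, 21.4 and 21.8 FPKM (log2 difference -1.10 ± 0.097 SE, adjusted p = 0.00426), and held in all 6 fits with a library left out. Nr1d1, the repressor Rev-erb alpha, stood at 119.6, 105 and 94.5 and 43.6, 22.2 and 21.6 FPKM (log2 difference -1.90 ± 0.27 SE, adjusted p = 0.0156). Its relative Nr1d2 stood at 38.5, 26.6 and 32.4 and 13.4, 18.6 and 17.7 FPKM (log2 difference -0.93 ± 0.17 SE, adjusted p = 0.0304). Both lost their calls without si-NC 3, si-CIRBP 2 or si-CIRBP 3 (adjusted p up to 0.0799 and 0.132), Nr1d1 also without si-NC 2 and Nr1d2 also without si-NC 1. The core activators Clock (adjusted p = 0.063) and Arntl (0.834) were not called. Clock genes called lower numbered 2 without si-NC 1, 2 without si-NC 2, 1 without si-NC 3, 10 without si-CIRBP 1, 1 without si-CIRBP 2 and 1 without si-CIRBP 3.

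Stress responses to amino acid shortage were mixed. Atf4, the factor that leads them, stood at 186, 229 and 193 FPKM in the si-NC libraries, against 148, 91.8 and 95.3 FPKM in those labelled si-CIRBP (log2 difference -0.88 ± 0.20 SE, adjusted p = 0.0458 with limma). It was the single call among 14 tested ATF4 and CHOP targets, where 6.3% of all genes were called lower. The call of Atf4 held only without si-CIRBP 1 (adjusted p up to 0.151 in the other fits). The call was also lost after scaling to a common median (adjusted p = 0.0789) and by median ratios (0.066). Ddit3, CHOP itself, stood at 127, 100.1 and 112 FPKM in si-NC, 99.5 FPKM in si-CIRBP 1 and 21.8 and 23.6 FPKM in si-CIRBP 2 and 3 (adjusted p = 0.13, and 0.00141 without library 1 of both groups). Without library 1 the list counted 7 members lower and 1 higher, where 11.8% and 6.63% of all genes were. Slc3a2, the heavy chain shared by several amino acid transporters, stood at 204, 198 and 197 and 108, 86.2 and 90.5 FPKM (log2 difference -1.07 ± 0.098 SE, adjusted p = 0.00474) and stayed called with any library left out. None of the other 8 tested amino acid transporters was called. In the synthesis of serine, one-carbon units and proline, Phgdh (0.43, adjusted p = 0.0458), Psat1 (0.60, 0.0385) and Got1 (0.49, 0.0285) were called higher out of 14 tested, where 1.97% of all genes were. These 3 held only without si-CIRBP 1 among the fits with a library left out (adjusted p up to 0.153, for Phgdh). Of 25 Nrf2 targets 2 were called higher, Nqo1 and the peroxidase Prdx1 (0.58, adjusted p = 0.0411), and 1 lower, the factor itself, Nfe2l2 (-0.36, 0.0357). The shares of all genes were 1.97% and 6.3% in that order. Prdx1 and Nfe2l2 also held only without si-CIRBP 1 (adjusted p up to 0.15). That of Nfe2l2 was lost after scaling to a common median too (adjusted p = 0.0802).

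Several lists had few calls or none. No member was called among 12 ferroptosis and glutathione peroxidase genes, 16 cytosolic heat shock proteins, 26 nuclear subunits of the respiratory chain, 13 mitochondrially encoded genes and 14 matrix proteases and inhibitors with limma. At an unadjusted p under 0.05 these lists held 3, 1, 6, 0 and 3 members in that order, whichever the direction. Among all 13521 genes 3730 were below that value. The endoplasmic reticulum list had 2 of 24 higher, the translocon subunit Sec61b (0.50, adjusted p = 0.0299) and the folding enzyme Pdia6 (0.37, 0.0498). Autophagy and lysosome genes had 2 of 24 lower, the calcium channel Mcoln1 (-0.64, 0.0121) and the factor Tfeb (-0.41, 0.0469). Phlda3 (-0.40, 0.0421) was the single call among 20 p53 targets, and Casp12 (-0.70, 0.0184) among 25 Bcl2 family members and caspases. Matrix genes had 2 of 24 higher, Tnc and the collagen chain Col5a3 (0.36, 0.0474), and the TGF-beta and BMP list 2 of 26 lower, the ligands Bmp2 (-0.50, 0.0397) and Inhba (-1.13, 0.0458). Beside these counts, 1.97% of all genes were called higher and 6.3% lower. The lower counts of these lists lay near that share. A further fall that held in all 6 fits was of Kcnn1, a calcium-activated potassium channel, at 7.77, 6.10 and 6.55 and 1.69, 1.66 and 1.76 FPKM (log2 difference -1.53 ± 0.12 SE, adjusted p = 0.00285 with limma). Of the other calls named here, that of Mcoln1 was lost without si-NC 3, si-CIRBP 2 or si-CIRBP 3, those of Casp12 and Tnc also without si-NC 2, and the rest held only without si-CIRBP 1 (adjusted p up to 0.175, for Pdia6). Scaling to a common median ended the calls of Bmp2 (adjusted p = 0.0611), Inhba (0.0675), Phlda3 (0.0755) and Tfeb (0.089), and scaling by median ratios those of Inhba (0.0592), Phlda3 (0.0526) and Tfeb (0.0606).

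Cell type markers did not settle the cells' identity. Sox10, a factor of glia and neural crest, stood at 193, 145 and 155 FPKM in the si-NC libraries, against 123, 123 and 126 FPKM in those labelled si-CIRBP. S100b, a glial calcium-binding protein, stood at 165, 116 and 133 and 111, 149 and 155 FPKM. Gfap, the astrocyte filament, was at 2.28, 1.44 and 1.97 and 1.77, 3.04 and 3.48 FPKM. Muscle markers were low or uneven, with Des, the muscle filament, between 0.415 and 4.04 FPKM. Tnnt2, cardiac troponin T, stood at 5.05, 68.1 and 22.7 FPKM in the si-NC libraries, against 9.45, 61.4 and 89.9 FPKM in the other group, and was far apart between libraries of a label. Myog, a factor of muscle differentiation, followed it, at 0.798, 20.0 and 6.03 and 1.48, 28.7 and 44.8 FPKM. The summed FPKM of skeletal and cardiac muscle markers was 26.03, 152 and 68.7 in si-NC and 41.0, 174 and 261 in the libraries labelled si-CIRBP. That of smooth muscle markers was 206, 1659 and 1305 in si-NC and 871, 901 and 1067 in the libraries labelled si-CIRBP. None of the 11 tested skeletal and cardiac markers, 9 smooth muscle markers, 7 neuronal and oligodendrocyte markers and 3 macrophage markers was called with limma (unadjusted p under 0.05 in 0, 0, 1 and 2), and of 5 tested astrocyte markers Aldoc alone. Among all 13521 genes 3730 had an unadjusted p under 0.05, and 1.97% were called higher and 6.3% lower. Endothelial Cdh5 was at no more than 0.12 FPKM. Mef2a, a factor of muscle genes, was the single call among 12 myogenic factors, at 32.6, 32.4 and 32.0 and 22.1, 24.2 and 23.1 FPKM (log2 difference -0.46 ± 0.069 SE, adjusted p = 0.0175 with limma, kept only without si-CIRBP 1, adjusted p up to 0.108 in the other fits).

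Library 1 of si-NC was low in a set of contractile and matrix genes. In genes whose other 2 si-NC values lay within 0.5 of each other on the log2 scale, it was lower by at least 1 in 387 and higher in 20, against 35 and 33 for si-NC 2 and 20 and 21 for si-NC 3. Acta2, smooth muscle actin, had 73.8 FPKM in si-NC 1, 954 and 722 FPKM in si-NC 2 and 3 and 466, 546 and 659 FPKM under the si-CIRBP label. Tagln, an actin-binding protein, had 29.2, 357 and 277 and 196, 159.9 and 193 FPKM. The collagen chain Col1a1 had 42.4, 661 and 395 and 314, 539.6 and 683 FPKM, and Col3a1 27.9, 475 and 261 and 217, 334 and 447 FPKM. In these genes si-NC 1 alone was apart from the other 5 libraries, whichever the label. The 9 smooth muscle markers of si-NC 1 departed from the other si-NC libraries by a median of -2.33 on the log2 scale.

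Library 1 of si-CIRBP was high in stress genes and low in mitosis. By the same measure it was higher by at least 1 in 248 genes and lower in 117, against 17 and 8 for si-CIRBP 2 and 18 and 22 for si-CIRBP 3. Its median departure from si-CIRBP 2 and 3 was 1.28 over the hypoxia targets, 1.01 over the ATF4 and CHOP targets, 0.81 over the inflammatory list and -0.91 over mitosis. Ddit4, an inhibitor of mTORC1 induced by hypoxia and starvation, stood at 10.3, 13.3 and 11.5 FPKM in si-NC, 209 FPKM in si-CIRBP 1 and 28.5 and 28.8 FPKM in si-CIRBP 2 and 3. Depp1, an autophagy regulator induced by FoxO factors, had 12.0, 9.39 and 11.3, 224 and 16.8 and 15.3 FPKM in that order. Cxcl2, a neutrophil chemokine, was at 3.60, 2.90 and 3.90 FPKM in si-NC, 15.2 FPKM in si-CIRBP 1 and 0.221 and 0.181 FPKM in si-CIRBP 2 and 3, where si-CIRBP 1 was above si-NC and its partners were below. Sox2, a factor of neural progenitors and glia, was low there, at 25.8 FPKM against 107, 84.3 and 85.2 FPKM in si-NC and 96.6 and 92.3 FPKM in si-CIRBP 2 and 3. A few genes were on or off in single libraries, such as Tma7, at 25.98, 0.474 and 0.647 and 0.523, 29.5 and 23.2 FPKM, and Rpl8, a ribosomal protein with 2.05, 260.4 and 2.80 and 2.05, 2.10 and 2.15 FPKM; Rpl8 has near-identical copies in the genome, and its values are uncertain.

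**Figure D4:**
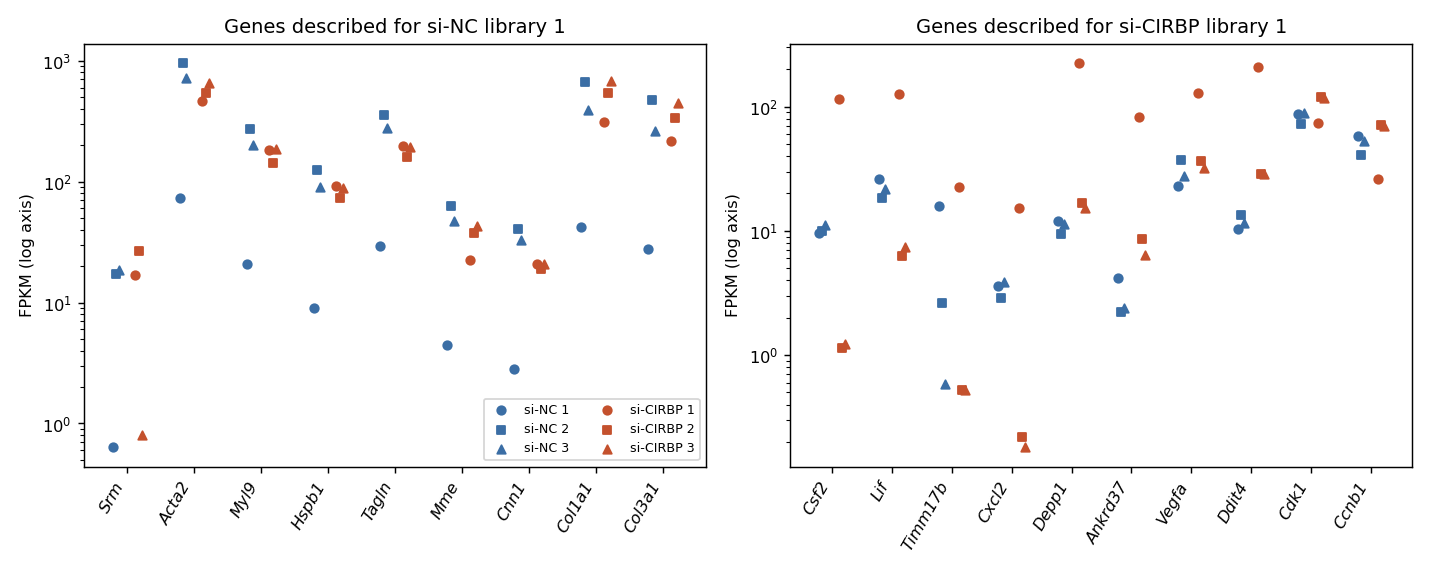
FPKM in each library (log axis) of genes in which library 1 of si-NC (left) or of si-CIRBP (right) departed from the other libraries of its label, with si-NC in blue and si-CIRBP in red, and circles for library 1. Acta2 stood at 73.8 FPKM in si-NC 1, below the other 5 libraries, and Ddit4 at 209 FPKM in si-CIRBP 1, above the other 5.

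Set beside the 6 libraries labelled CIRBP and NC, which have controls of their own, the deepest falls had a counterpart, while genes of other lists differed. A joint fit of 12 libraries tested the difference between the 2 changes, and 2329 of 13521 genes differed (17.2%). For Mx2 the change was -5.11 in si-CIRBP against si-NC and -5.02 in CIRBP against NC (68.8 ± 4.62 and 1.16 ± 0.197 FPKM, mean ± SD, n = 3 each), with a difference of -0.09 (adjusted p = 0.678 with limma). For Irf9 the changes were -2.36 and -2.26 (difference -0.10, 0.626). Clec3b (2.42 and 2.76, difference -0.34, adjusted p = 0.103) and Scg2 (1.91 and 2.01, difference -0.10, 0.624) were higher in both, and the difference between the 2 changes did not pass the threshold. Of the 41 effectors 10 differed. On the log2(FPKM + 1) scale 8 of them had the deeper fall, or the change nearer to a fall, in si-CIRBP against si-NC. Mx1 was among these (-3.75 and -2.38, adjusted p = 0.00034 with limma). Its mean was 17.9 and 0.409 FPKM in si-NC and si-CIRBP, and 4.59 and 0.0759 FPKM in NC and CIRBP. That scale understates changes at low levels, so this order does not show which fall was deeper in proportion. Cirbp itself stood at 0.05 and 0.83 (difference -0.78, 0.000603), with 19.7 ± 0.557 FPKM in NC and 35.8 ± 1.27 FPKM in CIRBP.

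Several lists held members that differed between the comparisons. Of 15 NF-kB genes 9 differed, all with the less negative value in si-CIRBP against si-NC, such as Relb at -1.36 against -3.23 in CIRBP against NC (adjusted p = 0.000711 with limma). Of 9 amino acid transporters 7 differed, all in the direction of lower values in si-CIRBP against si-NC. Slc7a5, the leucine carrier, stood at -0.09 and 1.10 (adjusted p = 0.00213). Slc7a11, the cystine carrier, stood at 0.17 and 2.50 (0.00679). Serine and one-carbon genes differed in 7 of 14, such as Phgdh, at 0.43 and 1.35 (0.000341). Mthfd2, a mitochondrial folate enzyme of that list, stood at 0.20 and 2.02 (0.00326). The ATF4 and CHOP targets differed in 6 of 14, such as the asparagine synthetase Asns, at 0.25 and 2.26 (0.00231). Of 20 p53 targets 9 differed, 6 with the higher and 3 with the lower value in si-CIRBP against si-NC, and of 7 fibroblast markers 3 differed. Nqo1 was higher in both, by 1.04 and 1.98, and by less in si-CIRBP against si-NC (0.000691). So was Mrc2, by 0.84 and 1.58 (0.000263). The titles name H9C2 cells for all groups, with the doubt about the line given above. The file headers mark NC and CIRBP with the prefix ad and the other pair with si, and the labels do not explain ad. Whether the 2 pairs of groups came from the same cultures was not stated. These differences were not recomputed with libraries left out.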

How the data were processed

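Poly-A RNA had been sequenced with paired ends after TRIzol extraction, per the labels' protocols. Values were FPKM for each gene and library, made by the authors, per the file headers. Of 18344 rows, 16618 had rat Ensembl identifiers and 1726 stood for transcripts the authors assembled. The submitters' processing notes list Bowtie2 2.3.3.1, Cufflinks 2.2.1 and, with no role, the mouse builds mm10 and GRCm38. Annotation, strand setting and the treatment of shared reads were not stated. Groups came from the titles. The 13521 genes (1185 assembled) that reached 1 FPKM in 3 of the 6 libraries were compared with limma 3.58.1 in R 4.3.3 on log2(FPKM + 1), lmFit and eBayes with a trend, 4 residual and 2.493 prior degrees of freedom, two-sided, with Benjamini-Hochberg adjustment over all 13521. Calls needed an adjusted p under 0.05. Fold changes on that scale understate the change of low genes, FPKM hold no absolute depth, and a value of 0 can be a failed estimate. The difference between the comparisons came from a fit of all 12 libraries. The fit was also run on simulated data with independent noise, a single spread per group and no library that stood apart. That run does not test how library 1 of each group affects the calls.

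The libraries were taken by label, but the comparison as the subject, the genes described and the gene lists were chosen with earlier results of these data known. The text names Cirbp and Rbm3, the 12 largest called changes in each direction among genes whose groups did not overlap, and up to 4 called members per list. It also names 6 per direction that departed most in each single library, and 6 per direction that held without library 1 of both groups. Other list members were chosen after their values were seen. Some list members that enter the counts are not reported here. Samples with the same replicate number did not deviate together. Alternatives were the pseudocount (0.1 and 5), the filter, the scaling, all 12 libraries, no trend, robust and weighted fits, a replicate block, and each library or library 1 of both groups left out. Promoters came from RefSeq (GRCr8), matched by symbol. No gene set test was run.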

Additional observations from a re-analysis of the deposited data

How the results depend on the processing

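The limits are the number of libraries, 3 a group, the unknown depth, and library 1 of each group. The 1118 calls (266 higher, 852 lower) became 4092 (1284 and 2808) with all 12 libraries in the fit, 2493 (896 and 1597) without replicate 1 of both groups, 7884 (2991 and 4893) with array weights, where the weights routine stopped before converging and gave si-NC 3 a weight of 34.79 against 0.1102 to 2.274, and 67 to 1881 (6 to 513 higher and 61 to 1368 lower) with 1 library left out. Scaling to a common median gave 611 higher and 533 lower, and scaling by median ratios 454 higher. Each leave-one-out fit also held fewer libraries, and the cause of these shifts was not tested. Other pseudocounts, filters, no trend and a robust fit kept the counts between 928 and 1156. Cirbp (0.05) turned to -0.018 without si-NC replicate 2 (adjusted p = 0.906 with limma, 0.206 to 0.918 over the alternatives) and was 0.14 without replicate 1 of both groups.

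Same-numbered libraries did not deviate together (correlations of deviations 0.0063, -0.0989 and 0.0293 for numbers 1, 2 and 3), and the numbers were not used as a pairing. These correlations are a description without a test. The labels do not say whether same-numbered libraries were handled together. With the replicate block 105 genes were called, 17 higher and 88 lower, and 42 of the 82 named genes with a test kept their side of the threshold. That number was 78 without si-CIRBP 1, 26 without si-NC 3, 28 without si-CIRBP 2 and 29 without si-CIRBP 3.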
